A study of Mus musculus with 19 samples.

Results

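The cytosolic ribosomal protein genes encode the proteins of the 60S and 40S subunits of the ribosome. They were taken from the deposited gene table by symbol: Rpl or Rps followed by a number and, where present, one of the endings a, x, l, l1 or al, together with Rplp0, Rplp1, Rplp2 and Rpsa. This gave 83 genes of 21749, 51 of the large subunit and 32 of the small subunit, and all 83 passed the filter on low values described next. Rps3a1, Fau and Rack1, which also encode cytosolic ribosomal proteins, have other kinds of names and are given separately, and 73 rows whose symbols name ribosomal protein pseudogenes were kept out.

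The libraries hold ribosome-bound messenger RNA of cortical astrocytes from mice of line JD130Htz, which carry the transgene Aldh1l1-EGFP/Rpl10a on a mixed B6;FVB background. In this line an EGFP-tagged copy of ribosomal protein L10a is driven by regulatory sequence of the astrocyte gene Aldh1l1, and tagged ribosomes are pulled down with magnetic beads (translating ribosome affinity purification, TRAP). Every library carries the transgene. Of the 19 libraries, 4 came from males, with no hour of collection in the labels, and 15 from females collected at 09:00: 3 in proestrus, 4 in estrus and 8 in metestrus. The labels name 3 batches, without saying what a batch was: batch 2 held 2 proestrus, 3 estrus and 2 metestrus libraries, batch 3 held 1 of each stage, and batch 4 held the 4 male and 5 metestrus libraries. The labels do not give age, hormone level or the number of animals behind a library, so p-values measure the spread between libraries, which may be technical.

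The values are log2 expression values adjusted by the authors. A gene was tested where 3 or more libraries reached 3.32 (10 on the linear scale), which held for 20644. Taken back from the log scale, a library summed to 1.98e7 to 2.56e7, the sequencing depth is unknown, and the median of all genes lay between 7.18 and 7.47 in every library. The 20 astrocyte markers averaged 13.44 to 14.34 per library, against 12.02 to 12.40 for 18 neuron markers, 9.63 to 10.04 for 14 oligodendrocyte markers, 7.20 to 8.02 for 12 microglia markers, 4.15 to 6.70 for 14 endothelial and mural markers and 4.63 to 7.03 for 12 choroid plexus and ependymal markers. The neuron markers were thus well expressed in these astrocyte pull-downs. Fewer cells of a type and less RNA per cell cannot be told apart in such libraries.

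Ribosomal proteins are made in near-equal amounts, and in mammals most of their messengers start with an unbroken run of C and T, the 5′ terminal oligopyrimidine (TOP) tract. The tract lets mTORC1, through the RNA-binding protein Larp1, set how many ribosomes sit on these messengers. L10a itself belongs to the L1 stalk of the large subunit, on the side where used transfer RNA leaves the ribosome, and it is the one member whose row can also take reads from the transgene.

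RefSeq promoters of build GRCm38.p6 matched 61 of the 83 genes. In the window from 20 bases before to 30 bases after the annotated start, the longest run of C and T on the sense strand had a median of 8 bases over the members and 5 bases over 27025 genes. Runs of 8 or more bases stood in 50.8% of the members' windows and in 18.8% of all. The sequences printed here show 6 members with runs of 9 or more bases and 3 without. The 3 are Rpl10a, Rpl41 and Rpl3l, whose values are described further on. Each stretch holds 40 bases before and 25 bases from the annotated start, 5′ to 3′ on the gene's strand, and capitals mark the longest run within the window from 20 bases before to 30 bases after the start, even where a longer run stands outside it.
Rpl15 (chr14:18270962-18271026, minus strand): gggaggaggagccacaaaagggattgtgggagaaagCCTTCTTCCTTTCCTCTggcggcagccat
Rpl4 (chr9:64173347-64173411, plus strand): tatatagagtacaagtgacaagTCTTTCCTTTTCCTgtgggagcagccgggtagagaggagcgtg
Rpl28 (chr7:4792925-4792989, plus strand): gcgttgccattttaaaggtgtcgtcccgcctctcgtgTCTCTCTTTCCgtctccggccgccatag
Rps27 (chr3:90213624-90213688, minus strand): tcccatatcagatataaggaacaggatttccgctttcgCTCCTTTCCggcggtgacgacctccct
Rps6 (chr4:86857343-86857407, minus strand): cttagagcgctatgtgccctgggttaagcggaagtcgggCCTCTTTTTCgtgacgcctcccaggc
Rpl22l1 (chr3:28805468-28805532, plus strand): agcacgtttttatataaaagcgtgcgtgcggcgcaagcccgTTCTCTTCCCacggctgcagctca
Rpl10a (chr17:28328431-28328495, plus strand): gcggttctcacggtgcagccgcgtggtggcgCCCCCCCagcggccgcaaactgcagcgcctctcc
Rpl41 (chr10:128549144-128549208, minus strand): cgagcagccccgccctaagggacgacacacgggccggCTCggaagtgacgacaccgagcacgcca
Rpl3l (chr17:24727786-24727850, plus strand): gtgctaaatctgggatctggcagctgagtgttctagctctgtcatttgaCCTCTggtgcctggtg
The run of Rpl15 spans 17 bases, that of Rpl4 14 and that of Rpl28 11, whereas Rpl41 has 3. The annotated start may differ from the one used in astrocytes, so a short run in this window says only that no longer run stands there.

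Short motifs known from housekeeping promoters were searched by their letters in the same 61 promoters, over the whole 300 bases unless stated. CCGGAAG, the core bound by ETS factors, was present on either strand in 37.7% of members and 9.12% of all genes. TATAAA within the 50 bases before the start was found on either strand in 1 member (1.64%, Rpl22l1), against 3.78% of all genes. CTTTCC, which can lie inside a pyrimidine run, stood on the sense strand of the window around the start in 14.8% of members and 2.37% of all genes, and on the other strand in 1.64% of members and 2.17% of all genes. These are matches of letters and not bound sites.

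The members were among the most abundant messengers of every library. Mean log2 values over the 19 libraries had a median of 12.31 and reached 13.90 for Rpl13, and 80 of the 83 genes had a mean of at least 10. The 3 exceptions were paralogs: Rps4l at 9.32, Rpl6l at 5.55 and Rpl3l at 2.48. To compare genes with each other, the mean was set per kb of transcript (GENCODE M21, the principal transcript of 81 members). The result rests on 1 annotated transcript per gene. It also takes the values as not already scaled by length, which is not known. On this log2-per-kb scale the members' quartiles lay at 12.24 and 13.09, and 67 of 81 were within 1 of the median of 12.69. Rpl13 (14.26), Rps14 (14.25), Rpl41 (14.20), Rps27 (13.96) and Rps29 (13.86) stood at the top. Rps15a (9.28) and Rps20 (9.64) stood low on this scale with annotated transcripts of 5130 and 3706 bases, and their levels not set per length were 11.64 and 11.53.

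**Figure D1:**
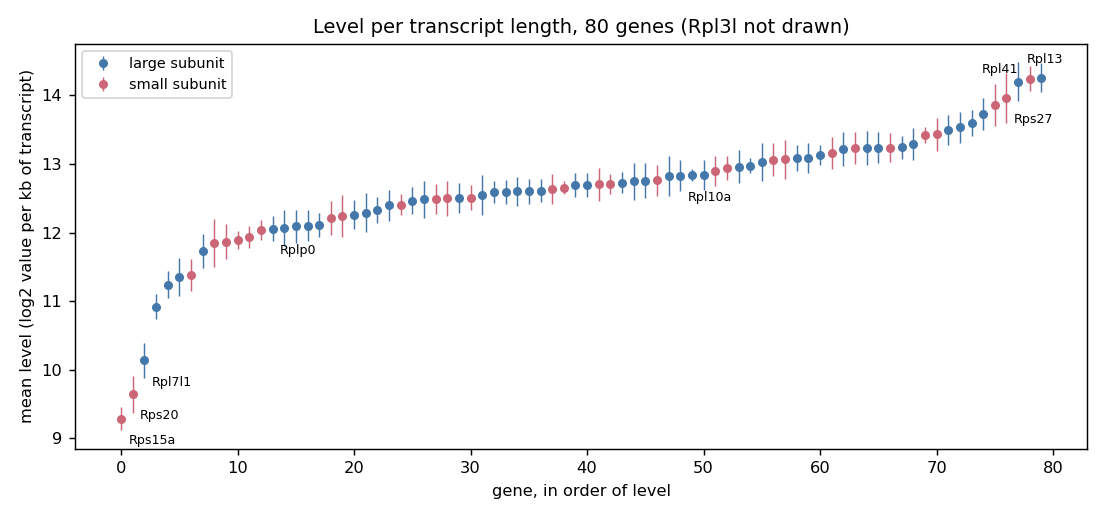
Mean level of 80 genes per kb of transcript (y axis, log2 scale) in order of level (x axis), blue for the large and red for the small subunit, with bars of the SD between libraries within groups. Most points lie between 12 and 13.5, and Rpl10a at 12.83 sits in the middle of the row. Rpl3l (2.03), Rpl6l and Rps4l (no length) are not drawn.

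Rplp0, the base of the acidic stalk that recruits elongation factors, averaged 12.50 ± 0.17 (SD over 19 libraries) before length was considered, Rplp1 12.72 ± 0.25 and Rplp2 12.53 ± 0.15, which bind to it as dimers. Per kb these were 12.06, 13.72 and 12.59, so on this scale Rplp0 lay below the members' lower quartile and Rplp1 above the upper one. The annotated transcripts used had 1358, 499 and 964 bases, of which 951, 342 and 345 were coding, so these ranks depend on the transcript chosen. Rpsa, a small subunit protein also known as the laminin receptor precursor, averaged 12.57 ± 0.14 (11.89 per kb, below the lower quartile), and Rps6, the small subunit protein phosphorylated by S6 kinases, 12.75 ± 0.17. Before length, the ribosomal proteins with other names averaged 12.75 ± 0.22 for Rps3a1, 12.51 ± 0.15 for Fau and 11.69 ± 0.13 for Rack1.

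No member passed the adjusted threshold of 0.05 in any of the 4 comparisons (limma with group and batch, Benjamini-Hochberg over all tested genes). In proestrus against metestrus 0 of 83 were called, where 0.988% of all tested genes were. The members' median log2 fold change was -0.10, against -0.09 over all tested genes, with 15 members above 0 and 68 below. Of the 20644 tested genes 12004 were below 0. The members varied together between libraries, as described further on. Counts of their signs are therefore not counts of separate observations, here and in the other comparisons. At an unadjusted p under 0.05 stood 2 members (2.41%), both lower, against 13.1% of all tested genes. The lean below 0 was smaller without Metestrus replicate 3 (median -0.03, 32 members above 0), without Proestrus replicate 2 (-0.04, 30 above 0) and without Metestrus replicate 2 (-0.07, 21 above 0), and larger without Metestrus replicate 1 (-0.16, 9 above 0). The median half-width of a member's 95% interval, not adjusted for the number of genes, was 0.37 on the log2 scale. A call at the adjusted threshold takes a larger change, so 0 calls do not exclude changes of that size.

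In estrus against metestrus 0 of 83 members were called, against 0.0872% of all tested genes. The median log2 fold change was -0.15, against -0.07 over all tested genes, and 72 members were below 0, where 11669 of 20644 tested genes were. The small subunit had a median of -0.18 with 30 of 32 genes below 0, and the large subunit a median of -0.14 with 42 of 51 below 0. The members' quartiles were -0.22 and -0.09. At an unadjusted p under 0.05 stood 4 members, all lower (4.82%, against 11.3% of all tested genes): Rpl36al, Rpl10a, Rpl34 and Rps10. Without Estrus replicate 4, the only estrus library of batch 3, the median was -0.07 with 23 members above 0 in place of 11, and with 6 above 0 it was -0.22 without Metestrus replicate 1 and -0.17 without Estrus replicate 2.

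In estrus against proestrus 0 of 83 members were called, against 0.94% of all tested genes. The median was -0.06, against 0.02 over all tested genes, with 29 members above 0 and 54 below, where 10732 of 20644 tested genes were above 0. The members' median was 0.01 without Estrus replicate 4 (43 above 0), -0.01 without Proestrus replicate 3 (39 above 0) and -0.04 without Proestrus replicate 1 (30 above 0). It was -0.10 without Estrus replicate 1 (23 above 0) and -0.11 without Proestrus replicate 2 (20 above 0). At an unadjusted p under 0.05 stood 2 members, both higher (2.41%, against 14.5%): Rpl4 and Rpl3l. In males against metestrus 0 of 83 were called, against 0.0242% of all tested genes. The median was -0.03, against 0.04 over all tested genes, again with 29 members above 0 and 54 below, where 11420 of 20644 tested genes were above 0. At an unadjusted p under 0.05 stood Rpl10a and Rps4l, both higher, and Rpl41, lower (3.61%, against 5.33%). Males replicate 4 weighed on this comparison: without it the median was -0.16, 16 members lay above 0, and 14 members stood at an unadjusted p under 0.05, 2 higher and 12 lower, against 4.11% of all tested genes, still with 0 called. The median was 0.00 without Males replicate 1 or without Males replicate 3 (42 and 40 members above 0), -0.01 without Metestrus replicate 4 or without Metestrus replicate 7, and -0.08 without Metestrus replicate 5 or without Metestrus replicate 6. The 3 comparisons with metestrus share metestrus libraries.

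**Figure D2:**
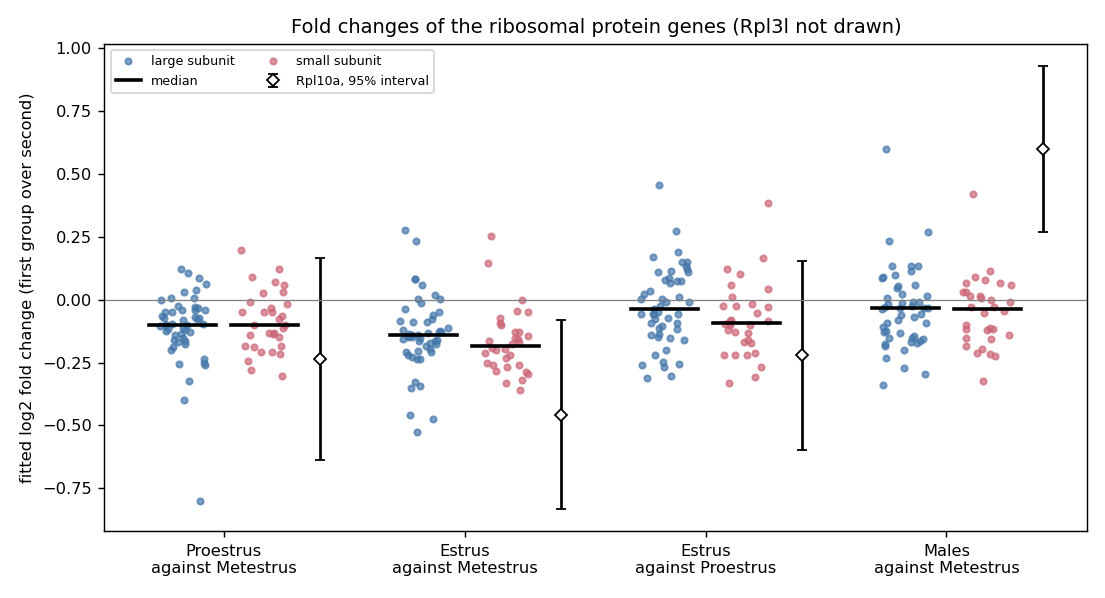
Fitted log2 fold change (y axis, first group over second) of 82 genes in the 4 comparisons, blue for the large and red for the small subunit, with the median of each subunit as a black line and Rpl10a again as an open diamond with its 95% interval. Medians run from -0.18 (small subunit, estrus against metestrus) to -0.03, and Rpl10a stands above every other plotted point in males against metestrus at 0.60. Rpl3l is left out for scale.

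Together the 83 genes made up 1.55% to 2.27% of a library's summed value. The share was 1.79 ± 0.28% in males (SD, n = 4), 1.94 ± 0.24% in proestrus (n = 3), 1.79 ± 0.23% in estrus (n = 4) and 1.95 ± 0.23% in metestrus (n = 8). By library it was 1.55%, 1.84%, 1.60% and 2.16% in males, 1.82%, 1.78% and 2.21% in proestrus, and 1.66%, 1.77%, 1.61% and 2.12% in estrus. In metestrus it ran from 1.66% to 2.27% with a median of 1.89%. The group means differed by less than the SD within each group, and the groups overlapped. The large subunit took 1.19 ± 0.14% and the small subunit 0.691 ± 0.092% over the 19 libraries.

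Rpl10a was not called either. Rpl3l aside, it had the highest fitted log2 fold change of the members in males against metestrus. Its log2 values were 12.970, 12.999, 13.424 and 12.579 in Males replicates 1 to 4, and in metestrus they ran from 12.12 through a median of 12.38 to 12.60. Of the males, 3 lay above every metestrus library, and Males replicate 4 lay just under Metestrus replicate 1 of batch 2. Within batch 4 the groups did not overlap: the 4 male values stood against 12.37, 12.38, 12.42, 12.38 and 12.44 in metestrus. Rpl10a was the 1 member of 83 with every male library above every metestrus library of that batch, against 1.53% of all tested genes. The members' share was thus not above that of all tested genes. In 0 members was every male library below, against 1.12%.

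The fitted log2 fold change of Rpl10a in males against metestrus was 0.60 ± 0.16 (SE), with a 95% interval of 0.27 to 0.93, an unadjusted p of 0.00107 and an adjusted p of 0.663 over all tested genes (limma). The difference of 0.60 within batch 4 (4 against 5 libraries) had an exact two-sided permutation p of 0.0159, the smallest p that this design allows. Adjusted over the 4 values tested in this way it was 0.0635. The other 3 differences within batch 4 were 0.64 for Rpl10a less the members' median (exact permutation p = 0.0635, adjusted 0.0847), 0.73 for Rpl10a-ps1 (exact p = 0.0317, adjusted 0.0635) and 0.40 for Aldh1l1 (exact p = 0.0952, adjusted 0.0952). The authors' adjustment kept the real groups, which favours a small p. Leaving out 1 library at a time moved the fold change between 0.46, without Males replicate 3, and 0.74, without Males replicate 4, and the adjusted p stayed above the threshold each time.

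Across the stages Rpl10a was lowest in estrus. It had 12.30, 11.86 and 12.24 in proestrus and 12.15, 12.06, 11.84 and 11.62 in estrus, so the highest estrus library lay just above the lowest metestrus library (12.12). In batch 2 it averaged 12.08 in proestrus and 12.02 in estrus, against 12.36 in metestrus, and in batch 3 the single libraries had 12.24, 11.62 and 12.38. The fitted log2 fold change was -0.46 ± 0.18 (SE) in estrus against metestrus (limma adjusted p = 0.346), -0.24 ± 0.19 in proestrus against metestrus (adjusted p = 0.646) and -0.22 ± 0.18 in estrus against proestrus (adjusted p = 0.613). Leaving out 1 library moved these values. In estrus against metestrus they lay between -0.61, without Metestrus replicate 2, and -0.32, without Estrus replicate 4. In proestrus against metestrus they lay between -0.38, without Metestrus replicate 2, and -0.07, without Proestrus replicate 2, with -0.36 without Proestrus replicate 3 and -0.13 without Metestrus replicate 1. In estrus against proestrus they lay between -0.39, without Proestrus replicate 2, and -0.08, without Estrus replicate 4, with -0.11 without Proestrus replicate 3 and -0.15 without Proestrus replicate 1. By group mean the order was males (12.99 ± 0.35, SD, n = 4), metestrus (12.38 ± 0.13, n = 8), proestrus (12.13 ± 0.23, n = 3) and estrus (11.92 ± 0.24, n = 4), and none of the 3 pairs of neighbours in this order differed past the adjusted threshold. Males and estrus share no batch and were not compared.

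The median over the members did not show this order, though single members such as Rpl8 and Rpl28 did by group mean. The members' median was 12.31 ± 0.18 in males, 12.32 ± 0.23 in proestrus, 12.19 ± 0.06 in estrus and 12.36 ± 0.17 in metestrus. Rpl10a less that median was 0.79, 0.72, 1.22 and 0.01 in the 4 males, averaged -0.19 ± 0.16 in proestrus and -0.27 ± 0.23 in estrus, and ran from -0.26 to 0.42 in metestrus. In Males replicate 4 Rpl10a thus had the value of a typical member, and in the 3 others it lay well above.

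A processed copy, Rpl10a-ps1, has its own row. Its GENCODE M21 sequence is identical to the Rpl10a coding sequence at 646 of 648 aligned bases (99.7%), so reads of either gene, or of the transgene, can fall in either row. Rpl10a-ps1 had 8.29, 9.03, 9.11 and 8.46 in males, 7.71, 7.21 and 7.21 in proestrus and 7.29, 6.82, 6.36 and 7.59 in estrus, and ran from 7.27 to 8.57 around a median of 8.02 in metestrus. Its group order was the same as that of Rpl10a, and its males and metestrus overlapped.

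Aldh1l1, the gene whose regulatory sequence drives the tag, had 12.70, 12.34, 12.50 and 12.29 in males, 12.04, 11.93 and 11.85 in proestrus and 11.89, 12.17, 12.52 and 11.68 in estrus, and ran from 11.42 to 12.38 in metestrus. Its fitted log2 fold change was 0.40 ± 0.18 (SE) in males against metestrus (limma adjusted p = 0.908), and 0.00 ± 0.21 in estrus against metestrus (adjusted p = 0.997), where Rpl10a had -0.46. Of the 20 astrocyte markers, 17 had a positive fold change in males against metestrus (median 0.20, 0 called), where 11420 of 20644 tested genes did. Of these markers 5 stood at an unadjusted limma p under 0.05, all higher (25%, against 5.33% of all tested genes). Their mean per library ran from 14.02 to 14.26 in males and from 13.81 to 14.34 in metestrus. The part of the tag, of reads shared with the pseudogene and of astrocyte content in the Rpl10a values was not tested.

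**Figure D3:**
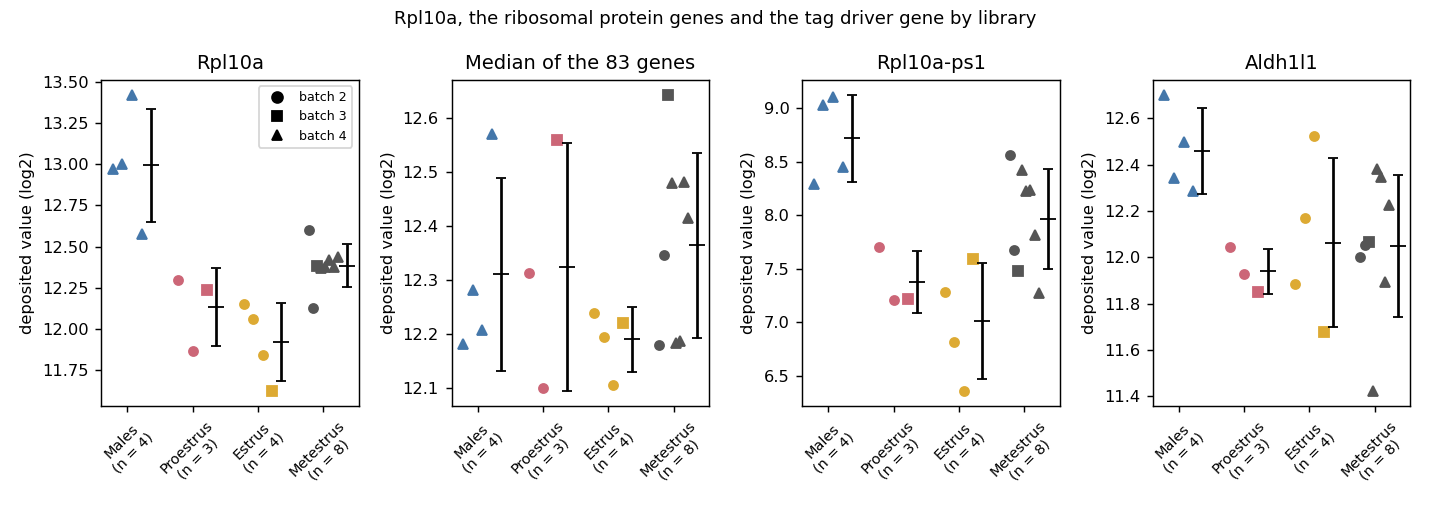
Deposited log2 values (y axes) in 19 libraries by group for Rpl10a, the median of the 83 genes, Rpl10a-ps1 and Aldh1l1. Each point is a library, its shape gives the batch, and the bar beside the points is the mean with the SD. The males sit highest for Rpl10a, from 12.58 to 13.42, whereas the members' median overlaps in all 4 groups.

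Further members named for their fold changes are given here, and none of them was called with batch in the model. Rpl36al, a paralog of Rpl36a and part of the site from which transfer RNA exits, had 11.64, 11.38, 11.31 and 11.57 in estrus, against a range of 11.71 to 12.13 in metestrus. Its fitted log2 fold change was -0.47 ± 0.14 (SE) in estrus against metestrus (limma adjusted p = 0.202) and -0.32 ± 0.15 in proestrus against metestrus (adjusted p = 0.363). Without batch in the model the estrus value was -0.47 with a limma adjusted p of 0.0225, the 1 call of a member under any setting. In that fit 313 of all tested genes were called higher and 586 lower, so calls were frequent outside the members too. The parent gene Rpl36a had -0.18 ± 0.17 in the same comparison (adjusted p = 0.732).

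Rpl4, which lines the exit tunnel of the large subunit, had 13.264, 13.325, 13.238 and 13.001 in estrus, against 12.48, 12.75 and 13.06 in proestrus. The groups overlapped by 1 library, and the log2 fold change was 0.45 ± 0.20 (SE; limma adjusted p = 0.283). Rpl41, the shortest ribosomal protein, had 12.65, 13.15, 12.86 and 13.52 in males, and 13.11 to 13.81 in metestrus. Its log2 fold change was -0.34 ± 0.15 (adjusted p = 0.895), with overlapping groups. Rps4l had 9.48, 10.08, 9.48 and 9.49 in males and 8.98 to 9.59 in metestrus, with a log2 fold change of 0.42 ± 0.18 (adjusted p = 0.895). Rpl10, Rpl37a, Rpl39 and Rps21 had fitted log2 fold changes between -0.33 (Rps21, estrus against proestrus, limma adjusted p = 0.383) and 0.11 (Rpl37a, proestrus against metestrus), and Rps2, at the entry of the messenger channel, had 0.20 ± 0.19 in proestrus against metestrus (adjusted p = 0.708).

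Rpl3l, which replaces Rpl3 in the ribosomes of heart and skeletal muscle, was at the bottom of the range. Its log2 values were -0.35, 0.54 and 0.55 in proestrus, 1.45, 5.20, 3.98 and 0.50 in estrus, and 1.15 to 4.08 in metestrus. The estrus libraries spread over almost the whole range. The log2 fold changes of -2.24 ± 1.01 (SE) in proestrus against metestrus (limma adjusted p = 0.342) and 2.40 ± 0.95 in estrus against proestrus (adjusted p = 0.228) had 95% intervals of -4.34 to -0.15 and 0.44 to 4.37.

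Several members have a paralog within the set, and their coding sequences differ at many bases. Rps27 and Rps27l, for example, share 192 of 252 coding bases (76.2%). The first 90 bases of each, from GENCODE M21 on chromosomes 3 and 9, are shown to give the spacing of the differences, with the 24 bases that differ in capitals.
Rps27: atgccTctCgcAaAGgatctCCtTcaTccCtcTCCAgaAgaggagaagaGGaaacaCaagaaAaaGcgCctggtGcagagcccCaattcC
Rps27l: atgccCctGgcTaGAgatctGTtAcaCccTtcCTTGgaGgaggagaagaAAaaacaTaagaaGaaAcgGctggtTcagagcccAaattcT
Rps27l, known as a p53 target, averaged 11.49 ± 0.23 and Rps27 12.43 ± 0.37 (SD over 19 libraries), and Rps27 was higher in 19 of 19 libraries. Per kb of transcript these were 12.49 and 13.96. Coding identity was 87.7% between Rpl36al and Rpl36a, 74.8% between Rpl3l and Rpl3, 73.5% between Rpl22l1 and Rpl22, and 63.4% between Rpl7l1 and Rpl7.

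Per kb, Rpl22l1 stood at 12.06 and Rpl22 at 12.26, which makes the pair nearly even in these libraries. Rpl36al at 12.73 stood above Rpl36a at 12.10, and before length it was higher in 19 of 19 libraries. In the pairs Rpl3l with Rpl3 (2.03 and 12.82 per kb) and Rpl7l1 with Rpl7 (10.14 and 12.69 per kb) the parent was higher, by far for Rpl3. Before length Rpl7l1 averaged 11.52 and Rpl7 12.91, and the annotated transcripts used had 2606 and 1163 bases. Rpl6l and Rps4l have no transcript length here, and before length their parents Rpl6 (12.67) and Rps4x (12.37) were higher in 19 of 19 libraries.

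**Figure D4:**
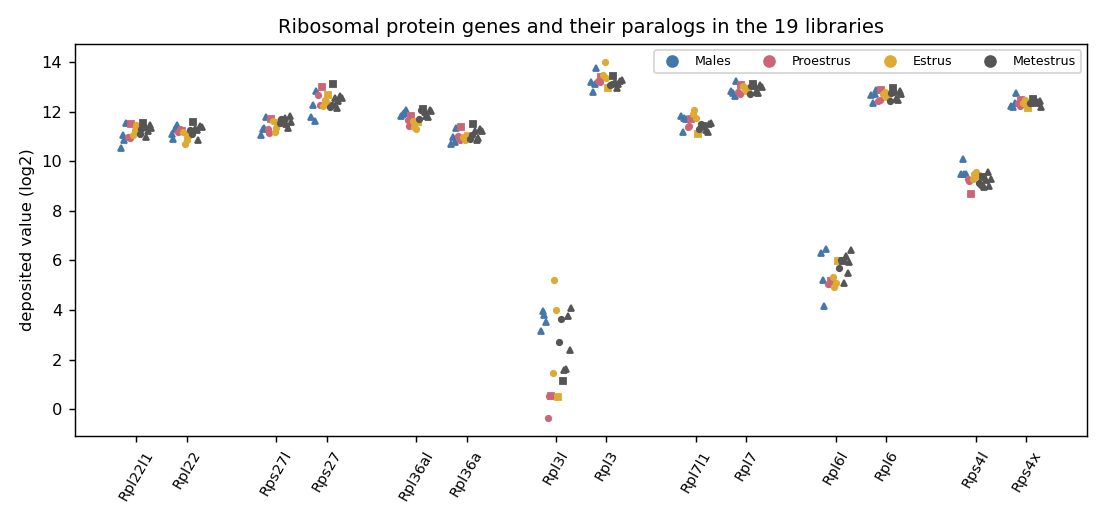
Deposited log2 values (y axis) of 7 paralogs, each left of its parent gene, in 19 libraries coloured by group, with circles for batch 2, squares for batch 3 and triangles for batch 4. Rpl3l scatters from -0.35 to 5.20, whereas Rpl3 stays between 12.81 and 14.02.

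Within groups the members varied together. After each group's mean was removed and each gene scaled, a single axis between libraries held 66.7% of the variance of the 83 genes, 67.3% within the large and 67.7% within the small subunit. The same computation gave 37.3% for 78 mitochondrial ribosomal protein genes (Mrpl and Mrps), which build a separate ribosome, and 17.6% for all 20644 tested genes. The members' correlation with this axis had a median of 0.86, was positive for 80 of 83 and reached at least 0.9 in 30. These correlations describe 19 libraries that share scaling and the authors' adjustment, and the members themselves define the axis.

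The genes that followed the axis most closely were Rpl13 (0.97), Rpl32 (0.97), Rps18 (0.97) and Rpl35a (0.97). The 3 with a negative correlation were Rps4l (-0.40), Rpl10a (-0.26) and Rpl3l (-0.25), and Rplp0 (0.20), Rpl7l1 (0.22), Rpl6l (0.31), Rps2 (0.32) and Rpsa (0.36) followed it weakly. The high libraries were Males replicate 4, Metestrus replicate 3 and Proestrus replicate 3, with a members' median of 12.57, 12.64 and 12.56. The low ones were Metestrus replicate 5 (12.18), Proestrus replicate 2 (12.10), Metestrus replicate 6 (12.19) and Metestrus replicate 1 (12.18). Of the high libraries, Metestrus replicate 3 and Proestrus replicate 3 were of batch 3 and Males replicate 4 of batch 4, whereas the 4 low ones were of batches 2 and 4.

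Batch was not removed from this axis, and in each stage group the batch 3 library scored highest: 0.34 for Proestrus replicate 3, 0.10 for Estrus replicate 4 and 0.39 for Metestrus replicate 3. When group and batch were both fitted, an alternative chosen after seeing the data, the first axis held 62.8% of the members' variance, 39.6% for the mitochondrial ribosomal proteins and 18.95% for all tested genes. On that axis 81 of 83 members had a positive correlation, with a median of 0.82, and the exceptions were Rps4l (-0.37) and Rpl10a (-0.22), while Rpl3l had 0.03. Males replicate 4 (0.58) and Metestrus replicate 5 (-0.33) stood at its ends, and Estrus replicate 4 scored -0.23.

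**Figure D5:**
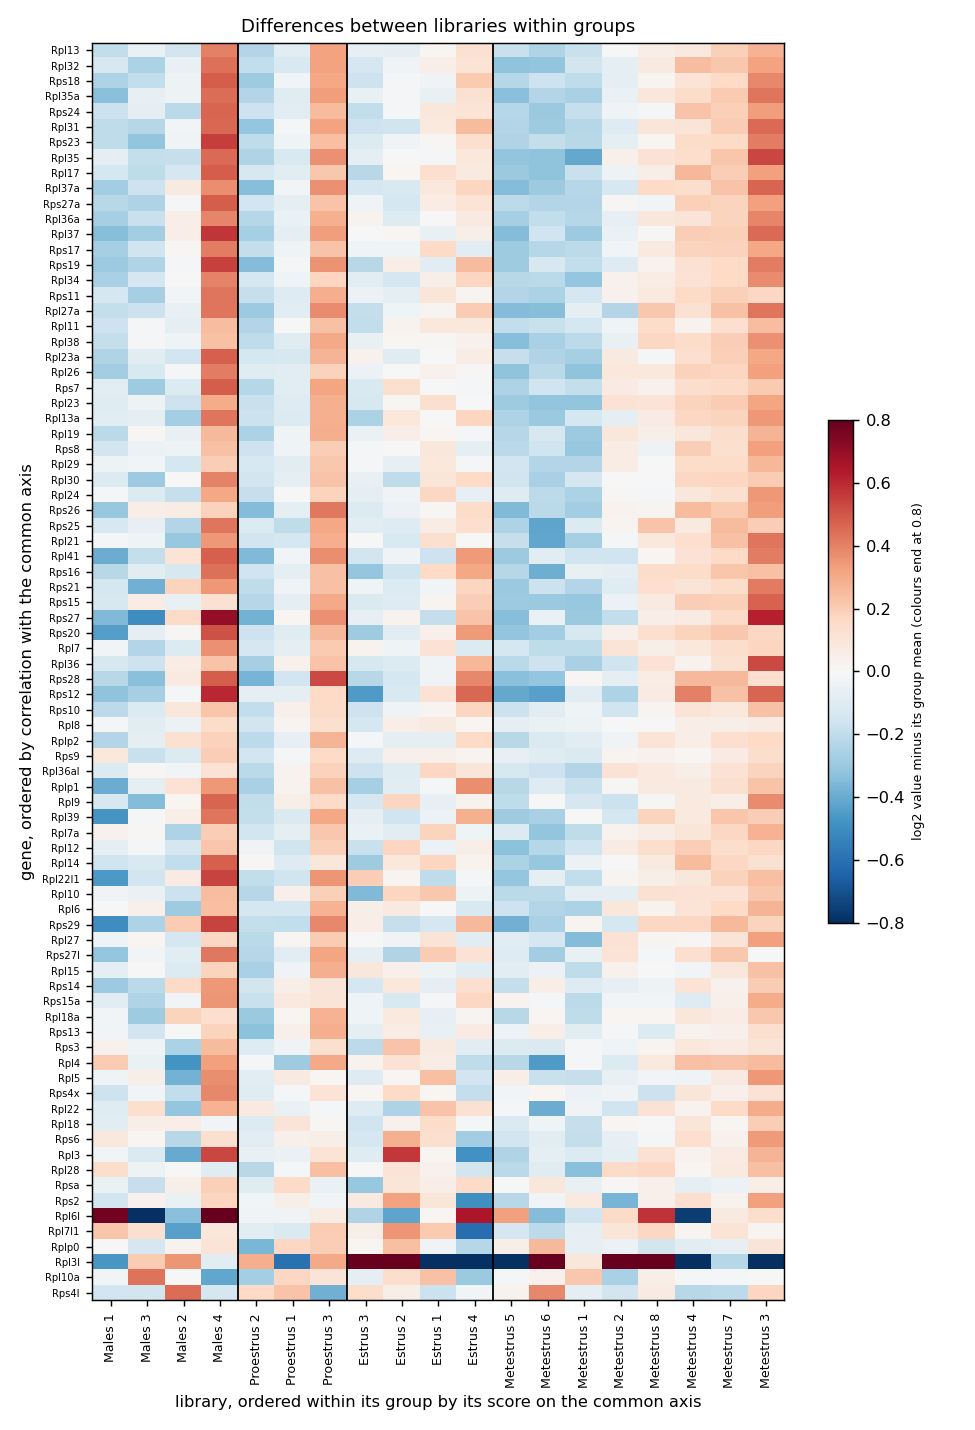
Log2 value less its group mean for 82 genes (rows, from the highest to the lowest correlation with the common axis) in 19 libraries (columns, by group, ordered within a group by their score). Red is above and blue below the group mean. The upper rows change colour together from left to right within each group, and Rpl10a and Rps4l at the bottom do not.

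In the 3 high libraries the 20 astrocyte markers averaged 14.02 in Males replicate 4, 13.85 in Proestrus replicate 3 and 14.18 in Metestrus replicate 3, and the 18 neuron markers lay between 12.12 and 12.21. In the 4 low libraries the astrocyte markers averaged 13.81 to 13.84 and the neuron markers 12.02 to 12.40. The part of cell content in the common axis was not tested. Across 81 members with a length, the axis correlation and transcript length had a Spearman rho of -0.33, which is a description across genes. The 31 members with a pyrimidine run of 8 or more bases at the annotated start had a median axis correlation of 0.86, and the 30 with a shorter run 0.83.

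The spread of the members was near that of other abundant genes. The SD between libraries within groups had a median of 0.22 over the 83 members and 0.25 over the 4648 tested genes with a mean of at least 10. It was smallest in Rpl8 (0.088), also small in Rpl18 (0.11), and largest in Rpl3l (1.26), Rpl6l (0.59) and Rps27 (0.36). Rpl8, which lies near the site of peptide bond formation, had 12.70, 12.67, 12.63 and 12.86 in males, 12.58, 12.41 and 12.68 in proestrus, 12.56, 12.55, 12.35 and 12.51 in estrus, and 12.56 to 12.69 in metestrus. Its log2 fold changes in the 4 comparisons lay between -0.14 and 0.09.

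Genes around the ribosomal proteins gave no calls either. The lists were translation factors (42 genes), other messengers with a TOP tract (22), ribosome biogenesis (68), mTORC1 and control of TOP messengers (38), mitochondrial ribosomal proteins (78) and nuclear-retained long non-coding RNAs (7), and all genes of each were tested. In each list 0 genes were called in each of the 4 comparisons. Of all tested genes 0.988% were called in proestrus against metestrus and 0.0872% in estrus against metestrus. The shares were 0.94% in estrus against proestrus and 0.0242% in males against metestrus. At such shares 0 calls in lists of this size say little about their genes. The TOP messengers outside the ribosome, such as Eef1a1, Eef2 and Tpt1, had a median log2 fold change of -0.14 in proestrus against metestrus, -0.07 in estrus against metestrus, 0.10 in estrus against proestrus and -0.01 in males against metestrus. In estrus against metestrus the translation factors had 0.05 and the members -0.15.

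Ribosome biogenesis genes, which make and fold ribosomal RNA in the nucleolus and join it to these proteins, had a median of 0.19 in estrus against proestrus, with 51 of 68 above 0 and 14 at an unadjusted p under 0.05, 11 higher and 3 lower (20.6%, against 14.5% of all tested genes). In the same comparison the members had a median of -0.06 with 29 of 83 above 0, and all tested genes 0.02 with 10732 of 20644 above 0. In males against metestrus the biogenesis genes had a median of 0.02. The mTORC1 list had medians of 0.00, -0.04, 0.02 and 0.02 in proestrus and estrus against metestrus, estrus against proestrus and males against metestrus. The mitochondrial ribosomal proteins had -0.13, -0.05, 0.07 and 0.02 in the same order.

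The nuclear-retained RNAs, which include Malat1 and Neat1, had medians further from 0 than the other lists in the 3 comparisons between stages, but not in males against metestrus. Their mean per library was 5.64 to 8.93 in estrus, against 9.16 to 10.29 in metestrus, with a median log2 fold change of -2.62 and 7 of 7 below 0, and again 0 called. At an unadjusted limma p under 0.05 stood 5 of the 7 (71.4%), all lower, against 11.3% of all tested genes. In estrus against proestrus the median was -1.44, in proestrus against metestrus -0.88 and in males against metestrus -0.17. At the same unadjusted level stood 4, 2 and 0 of the 7, against 14.5%, 13.1% and 5.33% of all tested genes. Endothelial and mural markers had a median of -0.72 in estrus against metestrus. The part of such RNA in the lower estrus median of the members was not tested.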

How the data were processed

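The authors deposited 1 table of log2 values for 19 libraries. Per the submitters' processing notes, STAR, Salmon, edgeR and the build GRCm39 were used, with no versions, and the table's name refers to surrogate variable analysis. Base 2 was inferred from the sums of the unlogged values, 1.98e7 to 2.56e7 per library with base 2 against 1.14e9 to 1.66e9 with the natural base. These sums settle the base only if the unlogged values are on the scale of read counts, which is not known. The values lack 4 directions of variation between libraries, which took up 98.6% of 1 batch direction and 9.95% of the other. No source here gives counts, depth, scaling or pseudocount, and precision rests on the spread between libraries alone.

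All 19 libraries entered a limma-trend model of group and batch (limma 3.58.1 in R 4.3.3, robust prior, 13 residual degrees of freedom where the rank of the values allows fewer, so p-values are somewhat too small). With batch in the model, stage comparisons rest on batches 2 and 3 and males against metestrus on batch 4. The fit was tested on simulated data. Genes were named by a rule: Rpl10a, stalk members, Rpsa, Rps6, paralog pairs, the 3 highest and 3 lowest fold changes per comparison and the 3 largest and smallest SDs. Rpl34, Rps10, Rpl13, Rpl15, Rpl28, Rpl32, Rpl35a, Rps14, Rps15a, Rps18 and Rps20 were named after their values or sequences were seen. Results of 2 genes are not reported here. Members and lists were chosen with earlier results of these data known. Promoters are RefSeq's (GRCm38.p6), transcripts GENCODE M21's (GRCm38), aligned with Biopython 1.88, and they give no position on the authors' build. Alternatives left out the filter, batch or 1 library, added 1 before the log, recentred libraries, changed the variance prior or added the removed directions.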

Additional observations from a re-analysis of the deposited data

Results flagged for a closer look

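Of 102 groups of 4 to 8 libraries checked for a value far from the rest, 1 had one. The critical value used lets about 1 in 20 groups through by chance. Rps4l had a log2 value of 10.08 in Males replicate 2, where the other 3 male libraries had 9.48 to 9.49.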

How the results depend on the processing

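Counts of called members stayed at 0 without the filter, with 1 added, with recentred values and with another variance prior. They also stayed at 0 in only the batches that hold both groups and with each library left out. In only those batches 1 of all tested genes was called in proestrus against metestrus, and 0 in both estrus comparisons. Estrus against metestrus also had 0 called of all tested genes without Metestrus replicate 1 or without Estrus replicate 2. There a count of 0 says nothing particular about the members. Without batch 1 member was called (Rpl36al, estrus against metestrus), where 313 of all tested genes were called higher and 586 lower. The direction of Rpl10a held with 1 added, with recentred values, without batch and with each library left out. Leaving out the filter, changing the variance prior or keeping only the batches that hold both groups cannot change its fold change. The removed directions took up 98.6% of 1 batch direction and 9.95% of the other. Adding batch together with all of them gave medians of -0.99 (proestrus against metestrus), -1.04 (estrus against metestrus) and 0.47 (males against metestrus). Rpl10a then had 0.57 and 0.36 in proestrus and estrus against metestrus, with SEs of 1.06 and 1.07. In males against metestrus it fell to 0.11 with an SE of 0.65, against 0.60 ± 0.16 in the main fit. A model chosen after seeing the data added only those removed directions that are orthogonal to batch. The medians and the fold changes of Rpl10a could not change there, since the values lack these directions. The residual degrees of freedom fell to 11. The limma adjusted p of Rpl10a in males against metestrus was 0.9998, against 0.663 in the main fit. Genes called in proestrus against metestrus were 16 higher and 59 lower, against 48 and 156 in the main fit. Leaving out the 100 most abundant other genes, which makes the sum smaller, raised the share to 2.24% in males, 2.41% in proestrus, 2.23% in estrus and 2.44% in metestrus.

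With batch fitted as well as group, an alternative chosen after seeing the data, the common axis of the members held 62.8% of their variance.

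With 1 library left out, the median lay between -0.16 and -0.03 in proestrus against metestrus, -0.22 and -0.07 in estrus against metestrus, -0.11 and 0.01 in estrus against proestrus, and -0.16 and 0.00 in males against metestrus. Of 2400 values of single named members, 2259 kept their direction and side of the threshold, 140 that were never called changed sign and 1 became called.

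Title numbers 1 to 4 occur in males and metestrus of batch 4. As a replicate block they gave Rpl10a 0.59 ± 0.18 (SE), the same 8 libraries unpaired 0.59 ± 0.18, and 0 called members either way. The correlations of same-numbered libraries were 0.16, 0.03, -0.26 and -0.13, and 1 of 4 males correlated best with its own number, so the numbers were not taken as pairs.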
